A study of Homo sapiens with 6 samples.

Results

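Receptors for neurotransmitters and neuropeptides were followed in HEK-293T cells, an embryonic kidney line that carries SV40 large T antigen, by sequencing of poly(A)-selected RNA. The genes were chosen by symbol: protein-coding genes named as receptors or receptor subunits for GABA, glutamate, glycine, acetylcholine, serotonin, dopamine, noradrenaline and adrenaline, extracellular nucleotides, somatostatin or neuropeptide Y, with at least 10 counts over the 6 libraries. Of 137 genes with such a symbol, 84 reached 10 counts, out of 24930 identifiers that did so among 62348 in the tables. Of these 84 genes, 76 encode receptors or subunits, and 8 share only the letters of the symbol: the proteases HTRA1, HTRA2 and HTRA3, the glutaredoxins GLRX, GLRX2, GLRX3 and GLRX5, and the scaffold GRID2IP. The counts of receptors below leave out these 8 genes. Another 53 genes were under 10 counts, and 28 of them had 0 counts in every library. The limit fell between GRM3, with 10 counts, and CHRM5 and GRM8, with 9 counts each, and GLRA1, CHRNA6 and P2RY6 lay just inside it with 11.

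The 3 WT libraries came from HEK-293T cells given a non-targeting guide RNA, and the 3 other libraries from HEK-293T cells with CRISPR/Cas9 directed at C17orf80, whose product is associated with mitochondrial DNA nucleoids. Both groups were grown in DMEM with fetal bovine serum, and puromycin was used to select monoclonal knockout cells. How many clones stand behind the libraries is not given in the sources used here, and clone-to-clone differences and the action of the guide cannot be told apart. Nor do these sources say if the libraries of a group were separate cultures, so p-values speak only to the spread between libraries, which may be technical. Counts assigned to genes summed to 14982340 to 16278091 per library. The C17orf80 transcript was not lost in the labelled knockout libraries: WT replicates 1 to 3 gave 397, 451 and 476 counts and labelled knockout replicates 1 to 3 gave 763, 699 and 698 counts (log2 fold change 0.78 ± 0.17 SE, edgeR adjusted p = 0.0232), and the group is therefore named below only by its label. Labelled knockout replicate 1 stood apart, with 11.9% of its gene counts on mitochondrial genes against 4.53% to 5.00% in the other 5 libraries, 15.9% of its reads in no gene against 8.75% to 10.8%, and a scaling factor of 0.851 against 1.03 to 1.04. Counts of calls are mostly given with and without it, and single values without it where it changed a call or a size.

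Ligand-gated channels open an ion pore when the transmitter binds, and are assembled from several subunits encoded by different genes. GABA-A and glycine receptors pass chloride, whereas nicotinic, ionotropic glutamate and P2X receptors pass cations. The G protein-coupled receptors for the same transmitters, and those for neuropeptides, signal more slowly through heterotrimeric G proteins. Most of these genes are known for their expression in neurons, and many are silent or low in other cell types.

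In all, 11 receptor genes behaved as switches, meaning that one group had at most 3 counts over its 3 libraries while each library of the other group had at least 5. GABRA3, GABRE, GABRQ and HTR2C were silent in the labelled knockout libraries, and 7 genes were silent in WT, among them NPY1R, NPY5R, GLRA3, GRIK2, CHRM3 and P2RX1. The promoter sequence of 6 of them is shown to set the genes that lie or move together side by side: GABRE and GABRQ are members of a single X-linked cluster, NPY1R and NPY5R are neighbours, and HTR2C and GLRA3 are a switch in each direction. Each line gives the 250 bases before the start that the RefSeq promoter table uses for the gene (build GRCh38.p14), 5′ to 3′ on the strand of the gene, with CpG dinucleotides in capitals. For NPY1R that start lies inside the annotated span of the gene, and the window is not upstream of the whole gene. The windows are chrX:151974677-151974926 on the minus strand for GABRE, chrX:152637645-152637894 on the plus strand for GABRQ, chrX:114583836-114584085 on the plus strand for HTR2C, chr4:163332597-163332846 on the minus strand for NPY1R, chr4:163343642-163343891 on the plus strand for NPY5R and chr4:174829248-174829497 on the minus strand for GLRA3.
GABRE: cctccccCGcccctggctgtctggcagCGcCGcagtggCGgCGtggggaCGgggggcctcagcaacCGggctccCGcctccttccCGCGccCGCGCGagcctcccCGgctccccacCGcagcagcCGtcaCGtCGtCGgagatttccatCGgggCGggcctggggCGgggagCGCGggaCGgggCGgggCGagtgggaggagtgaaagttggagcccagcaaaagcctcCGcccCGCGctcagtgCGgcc
GABRQ: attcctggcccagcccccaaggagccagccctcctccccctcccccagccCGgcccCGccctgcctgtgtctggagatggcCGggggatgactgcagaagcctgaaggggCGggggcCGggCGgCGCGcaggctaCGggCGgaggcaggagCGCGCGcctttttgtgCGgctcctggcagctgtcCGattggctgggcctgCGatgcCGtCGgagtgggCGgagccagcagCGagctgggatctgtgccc
HTR2C: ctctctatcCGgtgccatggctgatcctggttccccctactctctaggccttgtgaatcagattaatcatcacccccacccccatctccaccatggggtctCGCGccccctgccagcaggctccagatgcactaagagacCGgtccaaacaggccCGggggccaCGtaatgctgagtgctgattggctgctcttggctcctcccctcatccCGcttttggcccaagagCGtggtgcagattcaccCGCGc
NPY1R: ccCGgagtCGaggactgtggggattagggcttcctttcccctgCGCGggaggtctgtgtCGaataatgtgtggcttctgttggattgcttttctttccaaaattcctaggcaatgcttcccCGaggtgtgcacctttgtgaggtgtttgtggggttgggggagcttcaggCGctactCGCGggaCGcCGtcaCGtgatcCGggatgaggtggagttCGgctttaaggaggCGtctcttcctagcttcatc
NPY5R: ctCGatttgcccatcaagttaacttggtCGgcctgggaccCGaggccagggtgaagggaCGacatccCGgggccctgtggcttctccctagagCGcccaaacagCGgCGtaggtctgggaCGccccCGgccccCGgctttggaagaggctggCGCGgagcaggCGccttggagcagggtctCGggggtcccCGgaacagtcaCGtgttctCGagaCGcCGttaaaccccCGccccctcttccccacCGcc
GLRA3: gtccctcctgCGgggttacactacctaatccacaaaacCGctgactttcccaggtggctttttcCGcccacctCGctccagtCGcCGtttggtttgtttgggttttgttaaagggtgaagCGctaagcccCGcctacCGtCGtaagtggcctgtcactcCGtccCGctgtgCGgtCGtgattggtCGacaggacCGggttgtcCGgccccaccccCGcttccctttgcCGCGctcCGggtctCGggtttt

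The table held a window for 51 of the 76 receptors. These 51 windows had a median of 20 CpG dinucleotides, with a range of 1 to 44, against a median of 11 over all 27305 windows in the table. The receptors are protein-coding, whereas the windows of the table were not limited to protein-coding genes. Among the switches the GABRE window held 31 CpG, a number that 10.6% of all windows reached, and the GABRQ window 20, which 32.1% reached. HTR2C was close to the middle of all windows, with 10 CpG, reached by 51.9%. NPY1R held 15 CpG, and NPY5R and GLRA3 held 22 each. Genes silent in one group thus had both CpG-rich and average windows. Motifs were searched on both strands. CACGTG, the E-box core, lay in both the NPY1R and the NPY5R window and in 6.49% of all windows, and 6 of the 51 receptor windows held it. CCAAT lay in the GABRQ, HTR2C and GLRA3 windows and in 33% of all windows. GGCGGG, a GC box, lay in the GABRE, GABRQ, NPY5R and GLRA3 windows and in 42.3% of all windows. TATAAA, present in 11.1% of all windows, and CAGCACC, part of the RE1 element and present in 6.07%, were not among the letters of any of these 6 windows. These matches describe the letters and do not show binding.

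Receptor genes were called in both directions. By edgeR's quasi-likelihood test with Benjamini-Hochberg adjustment over all 17452 genes tested, at 0.05, 12 of 49 tested receptors (24.5%) were higher in the labelled knockout libraries and 7 (14.3%) were lower, against 8.64% and 6.50% of all genes tested. The other 27 receptors had too few counts for the default filter, and a silent gene passes this filter only through the group that expresses it. When a total of 10 counts was the only filter, so that all 76 receptors were tested, 11 were higher and 7 lower, against 5.53% and 4.15% of 24930 genes. DESeq2 called 14 higher and 7 lower, against 13.4% and 10.7% of genes, and limma-voom 11 and 7, against 8.04% and 7.08%. Without labelled knockout replicate 1, 16 of 53 tested receptors were higher (30.2%) and 10 were lower (18.9%), against 22.3% and 21.7% of 18133 genes; the share called lower was then below that of all genes. The median log2 fold change of the 49 receptors was 0.11, beside 0.00550 for all genes tested, while the median of its absolute size was 0.95 beside 0.44. Calls were spread over channels, with 5 higher and 5 lower of 30 tested, and G protein-coupled receptors, with 7 higher and 2 lower of 19. Without labelled knockout replicate 1, 7 channels were higher and 8 lower of 33 tested. For G protein-coupled receptors the counts were then 9 and 2 of 20. The summed level of all 76 receptors was 306 to 320 CPM (counts scaled to a common library total, with TMM-adjusted library sizes) in WT and 335 to 361 CPM in the labelled knockout libraries. Without P2RY1, the gene with the most counts, the sums were 265 to 275 and 243 to 282 CPM, which overlap.

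**Figure D1:**
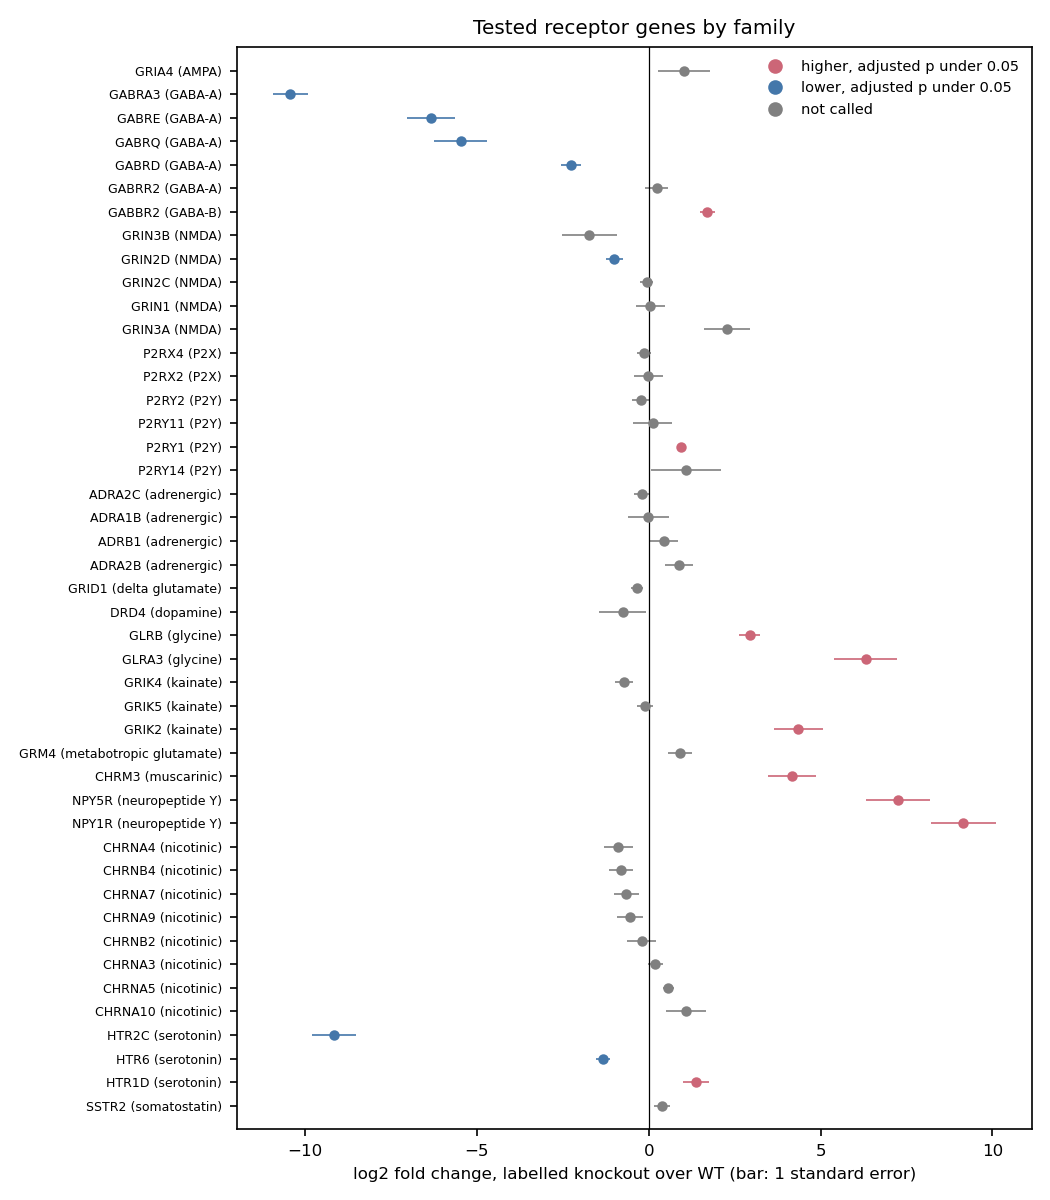
Log2 fold change (labelled knockout over WT, x axis, bars 1 standard error from edgeR over 3 against 3 libraries) of 45 tested receptor genes, grouped by family on the y axis. The 9 genes called higher and 7 called lower are coloured, and the largest changes, from -10.43 for GABRA3 to 9.15 for NPY1R, lie in different families.

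The switch rule was also met by 145 of all 24930 identifiers with at least 10 counts for silence in WT (0.582%) and by 115 for silence in the labelled knockout libraries (0.461%). Among the 76 receptors the shares were 9.21% (7 genes) and 5.26% (4 genes). These shares count neighbouring genes such as NPY1R and NPY5R separately. The genes had been chosen with earlier results of these data known. The switched-off receptor genes lay on the X chromosome, where 4 of the 6 receptor genes that reached 10 counts were switched off and 0 switched on. Of these, GABRA3, GABRE and GABRQ lie in a single interval of 1.43 Mb, described below. Over all 750 X-linked identifiers with at least 10 counts, 18 were switched off and 11 switched on, and 10 of the 18 lie in that interval. A count of 0 covers reads assigned to that gene alone, since reads overlapping several genes were listed apart and made up 9.74% to 12.5% of reads. In bulk RNA, fewer expressing cells and less RNA per cell cannot be told apart, so a level between the groups' extremes does not say how many cells carry the transcript.

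**Figure D2:**
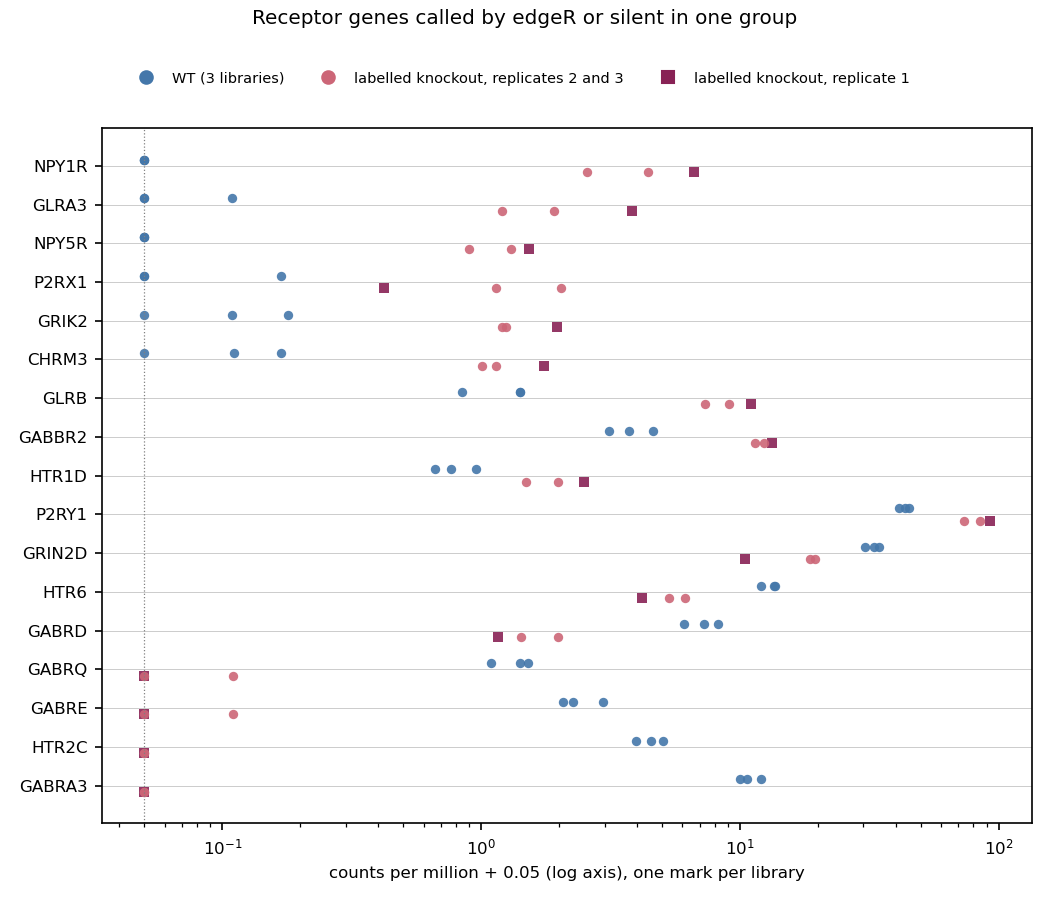
Level of 17 called or switched receptor genes in each library (CPM + 0.05, log axis), with WT in blue and labelled knockout in red or, for replicate 1, a dark square; the dotted line marks 0 CPM. For each of the 17 genes the libraries of the groups do not overlap, and the switches sit at or next to the dotted line in one group. The genes were drawn because they were called or switched, so this separation largely follows from the choice.

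GABA-A receptors, the chloride channels behind fast inhibition in the brain, held the largest fall among the tested receptors. Of 19 such genes 8 reached 10 counts and 7 were tested, with 2 higher and 4 lower, and 1 was switched on. GABRA3 encodes the alpha3 subunit, which takes part in the GABA and benzodiazepine binding sites. For GABRA3 (ENSG00000011677, chromosome X, 152166234 to 152451315), WT replicates 1 to 3 gave 184, 168 and 173 counts and each labelled knockout library gave 0. Each WT library was thus high and each labelled knockout library silent. The level was 10.8 ± 1.02 CPM in WT (SD, n = 3), at least 168-fold that in the labelled knockout libraries, computed against a floor of 3 counts over the group. In edgeR the adjusted p was 6.40e-04, and 7.40e-13 without labelled knockout replicate 1. Of other alpha subunit genes, GABRA4 had 2 counts in all, and GABRA2, GABRA5 and GABRA6 were at 0 in every library.

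The 2 X-linked neighbours of GABRA3 followed it. GABRE encodes the epsilon subunit, known for receptors with low sensitivity to benzodiazepines. GABRE (ENSG00000102287, chromosome X, 151953124 to 151974676) had 31, 49 and 36 counts in WT and 0, 0 and 1 count in labelled knockout replicates 1 to 3. The ratio of summed counts, corrected for library size, was 111, with a 95% exact counting interval of 19.6 to 4439, and the edgeR adjusted p was 0.00220. GABRQ encodes the theta subunit and lies beyond GABRA3 on the same arm. GABRQ (ENSG00000268089, chromosome X, 152637895 to 152658965) had 16, 23 and 24 counts in WT and 0, 0 and 1 in the labelled knockout libraries, a ratio of 60.5 with an interval of 10.5 to 2428 and an edgeR adjusted p of 0.00512. The groups did not overlap for either gene, and the single count lay in labelled knockout replicate 3 both times. GABRQ lies within the span of the long noncoding gene MAGEA3-DT, which had 224 counts in WT and 0 in the labelled knockout libraries. The labels do not state that the counting used strand, so reads of these 2 genes may not be told apart.

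The silence extended over the interval that holds the 3 subunit genes. Between VMA21 and CETN2, which lie 1.43 Mb apart from start to start in Xq28, 12 genes reached 10 counts, of which 9 are protein-coding. They summed to 11501 counts in WT and 7 counts in the labelled knockout libraries. Of the 12 genes, 10 met the switch rule. Besides the receptors these are cancer-testis genes of the MAGEA and CSAG families and 2 noncoding genes beside them, which are near-identical in part, so that the split of reads between copies is uncertain. MAGEA3 had 4013 counts in WT and 1 in the labelled knockout libraries, and CSAG3 had 760 and 0. MAGEA6, with 5405 counts in WT, had 4 in the labelled knockout libraries and so missed the limit of 3, and the pseudogene KRT8P8 fell short of 5 counts in 1 WT library, with 15 in all. The genes on either side were expressed in both groups. VMA21, which encodes an assembly factor of the proton pump of acidic organelles, had 9579 counts in WT and 10263 in the labelled knockout libraries (log2 fold change 0.17, edgeR adjusted p = 0.495), and CETN2, a centrin gene, had 2497 and 1898 (-0.36, edgeR adjusted p = 0.173). Beyond VMA21, the orphan receptor gene GPR50 rose from 41 to 755 counts (4.25, edgeR adjusted p = 5.36e-04). The files used here measure RNA, and the DNA of the interval was not tested.

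**Figure D3:**
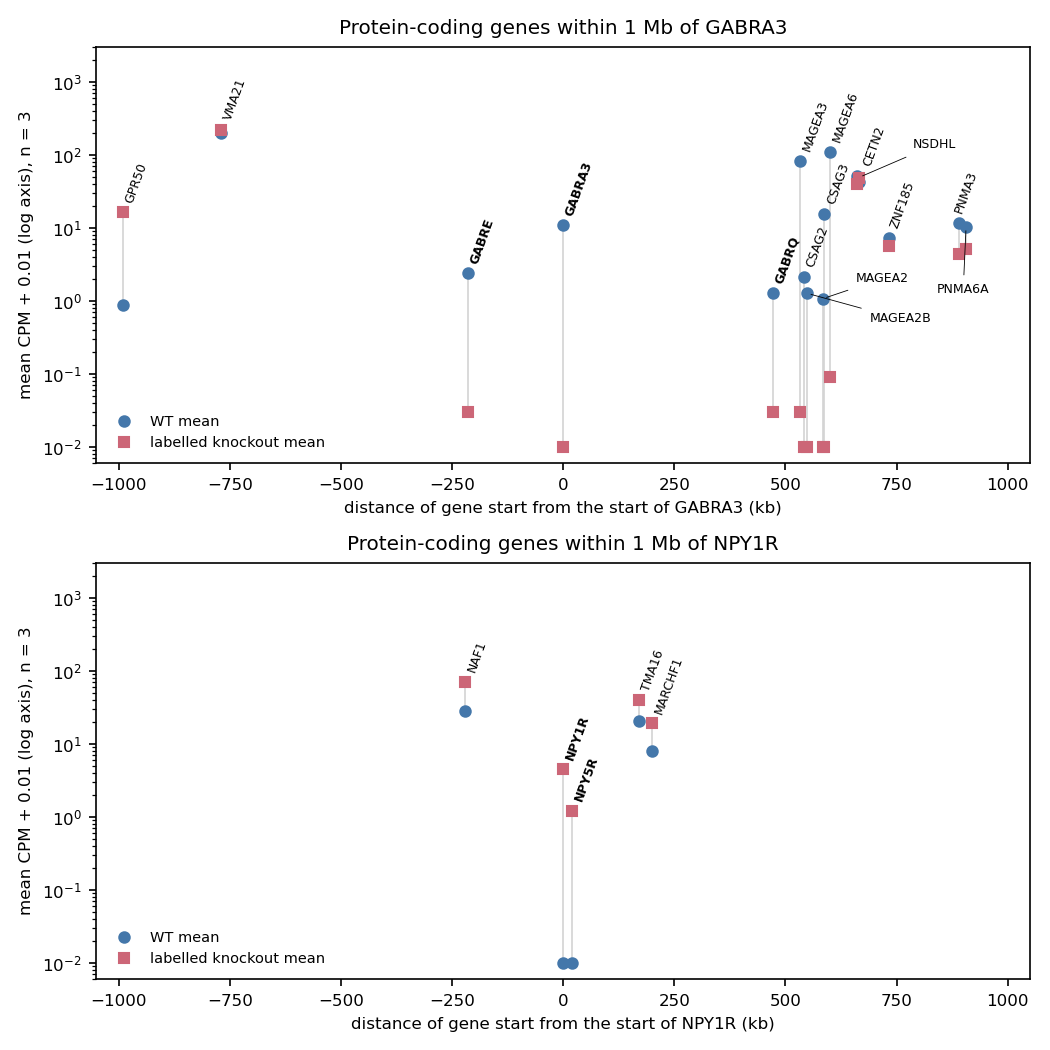
Mean CPM + 0.01 (log y axis, n = 3 libraries per group) of protein-coding genes with at least 10 counts within 1 Mb of GABRA3 (top) and NPY1R (bottom), against the distance of the gene start in kb; receptor genes are in bold. Around GABRA3 each gene from GABRE at -213 kb to MAGEA6 at 600 kb is near 0 in the labelled knockout libraries, while VMA21 and CETN2 are at similar levels in both groups.

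A further GABA-A subunit gene fell without being silent. GABRD, the delta subunit of extrasynaptic receptors, had 93, 121 and 134 counts in WT and 15, 32 and 23 in the labelled knockout libraries. It fell from 7.15 ± 1.08 to 1.48 ± 0.425 CPM (log2 fold change -2.26 ± 0.29 SE, edgeR adjusted p = 0.00391), and each WT library lay above each labelled knockout library. GABRR2, a rho subunit, had 60 counts in WT and 68 in the labelled knockout libraries and was not called (0.23 ± 0.33, edgeR adjusted p = 0.654), and its neighbour GABRR1 had 13 and 7.

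GABA-B receptors are G protein-coupled heterodimers of the products of GABBR1 and GABBR2. GABBR2 had 47, 77 and 60 counts in WT and 180, 202 and 189 in the labelled knockout libraries. Its level rose from 3.77 ± 0.763 to 12.3 ± 0.976 CPM, without overlap (1.70 ± 0.22, edgeR adjusted p = 0.00401; 1.65 without labelled knockout replicate 1). GABBR1 was near the detection limit and was not tested: it had 3, 4 and 24 counts in WT and 0, 1 and 2 in the labelled knockout libraries. WT replicate 3 carried most of the WT counts.

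Glycine receptors, the chloride channels of spinal and brainstem inhibition, were higher for the pair of subunits that could be tested. GLRA3, the alpha3 subunit, was silent in WT. GLRA3 (ENSG00000145451, chromosome 4, 174636920 to 174829247) had 0, 1 and 0 counts in WT and 51, 19 and 31 in the labelled knockout libraries. The ratio was 105, with a counting interval of 18.4 to 4193, and the edgeR adjusted p was 0.00620. GLRB encodes the beta subunit, which binds the scaffold gephyrin. It had 21, 23 and 13 counts in WT and 149, 120 and 150 in the labelled knockout libraries, and rose from 1.18 ± 0.329 to 9.11 ± 1.87 CPM (2.94 ± 0.31, edgeR adjusted p = 0.00184). Neither gene had overlapping groups, and both were called in each fit that left out 1 library. Within 1 Mb of GLRA3, HPGD, which encodes the enzyme that inactivates prostaglandins, rose as well, from 14 to 195 counts (3.86, edgeR adjusted p = 0.00220). The noncoding gene LINC02269 there was also called higher (3.29, edgeR adjusted p = 0.0150). FBXO8, CEP44, GPM6A and LINC02268 were not called (0.21 to 1.77, edgeR adjusted p from 0.0505 to 0.463). Beside GLRB the growth factor gene PDGFC rose from 477 to 1298 (1.53, edgeR adjusted p = 0.0216). GLRA1 and GLRA2 had 11 and 18 counts, of which 6 and 11 lay in labelled knockout replicate 1 alone. GLRA2 shares 42289 bases with FANCB, so its count is uncertain.

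Ionotropic glutamate receptors, the cation channels of fast excitation, held 1 call in each direction among 11 tested genes. GRIN2D, an NMDA receptor subunit of the GluN2 class, had 531, 513 and 539 counts in WT and 141, 322 and 309 in the labelled knockout libraries. It fell from 32.7 ± 2.05 to 16.2 ± 5.01 CPM (-1.01 ± 0.25, edgeR adjusted p = 0.0349). Labelled knockout replicate 1 was the lowest, and without it the log2 fold change was -0.77 with an adjusted p of 2.12e-06. The call was lost on leaving out any 1 WT library or labelled knockout replicate 3. GRIN2D shares 3745 bases with KDELR1, a gene with 15547 counts in WT, so its count is uncertain. GRIN1, the obligatory NMDA subunit, had 90 counts in WT and 92 in the labelled knockout libraries (0.0476 ± 0.42), and GRIN2C had 348 and 322 (-0.0630 ± 0.19). Both had overlapping groups. GRIN3A and GRIN3B, subunits with low calcium permeability, had opposite signs and were not called: GRIN3A had 6, 6 and 3 counts in WT and 39, 12 and 17 in the labelled knockout libraries (2.27 ± 0.67, edgeR adjusted p = 0.0606). GRIN3B had 47, 51 and 30 counts in WT and 0, 22 and 16 in the labelled knockout libraries (-1.74 ± 0.80, edgeR adjusted p = 0.174), and was called lower without replicate 1 (-1.19, edgeR adjusted p = 0.0123).

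Among kainate receptors GRIK2 was switched on. GRIK2 (ENSG00000164418, chromosome 6, 101393708 to 102070083) had 2, 1 and 0 counts in WT and 26, 19 and 20 in the labelled knockout libraries. The ratio was 22.6, with a counting interval of 7.38 to 112 (edgeR adjusted p = 0.00965), and the call was lost without WT replicate 2. GRIK5 and GRIK4, subunits that need a partner such as GRIK2 to form a channel, were not called: GRIK5 had 409 counts in WT and 370 in the labelled knockout libraries (-0.11 ± 0.24), and GRIK4 had 163 and 95 (-0.73 ± 0.26, edgeR adjusted p = 0.103) without overlap. The single AMPA receptor gene above the limit, GRIA4, had 10, 8 and 6 counts in WT and 24, 19 and 3 in the labelled knockout libraries, which overlap. The delta receptor gene GRID1 was not called (-0.35 ± 0.17, edgeR adjusted p = 0.187). Of the metabotropic glutamate receptors only GRM4 was tested, with 16, 22 and 21 counts in WT and 20, 44 and 44 in the labelled knockout libraries (0.90 ± 0.35, edgeR adjusted p = 0.122; 1.13 and 0.0106 without replicate 1). GRM5 had 0 counts in WT and 6, 5 and 2 in the labelled knockout libraries, too few in replicate 3 for the switch rule, and GRM2 had 16 and 23 in all.

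Nicotinic acetylcholine receptors formed the family with the most genes tested and had no call by edgeR. Of 12 genes above the limit 8 were tested, and 1 of the 8, CHRNA5, was under 0.05 before adjustment. DESeq2 called CHRNA5 higher, and limma-voom called 0 of the 8. CHRNA5, an accessory subunit, had 250, 322 and 302 counts in WT and 323, 433 and 488 in the labelled knockout libraries. The groups did not overlap, at 18.0 ± 1.51 and 26.5 ± 2.73 CPM (0.56 ± 0.16, edgeR adjusted p = 0.0512), and without labelled knockout replicate 1 the gene was called (0.64, edgeR adjusted p = 6.13e-05). CHRNA3 and CHRNB4 lie in the same cluster on chromosome 15 and together form the ganglionic receptor. CHRNA3, which shares 2218 bases with CHRNA5, had 493 counts in WT and 545 in the labelled knockout libraries (0.19 ± 0.21), and CHRNB4 had 111 and 61 (-0.80 ± 0.35, edgeR adjusted p = 0.160). CHRNA4, a subunit of the main brain receptor, was not called over all libraries (-0.89 ± 0.42, edgeR adjusted p = 0.189) but was called without replicate 1 (-1.37, edgeR adjusted p = 0.00343), as was CHRNA9 (-0.90, edgeR adjusted p = 0.0352). The muscle subunits CHRND, CHRNE and CHRNG had 7, 7 and 27 counts in WT and 10, 20 and 11 in the labelled knockout libraries. CHRNG shares 4233 bases with TIGD1, and CHRNE shares 7180 with C17orf107, so the counts of CHRNG and CHRNE are uncertain.

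P2X receptors are cation channels opened by extracellular ATP. P2RX1 (ENSG00000108405, chromosome 17, 3896592 to 3916465) had 0, 2 and 0 counts in WT and 5, 18 and 33 in labelled knockout replicates 1 to 3. It met the switch rule with a ratio of 29.1 and a counting interval of 7.70 to 247, and replicate 1 was the lowest of its group. The gene did not pass the default filter over 6 libraries, and without replicate 1 it was called higher (5.00, edgeR adjusted p = 3.25e-05). Its neighbour P2RX5 had 11 and 20 counts, but it shares 23178 bases with P2RX5-TAX1BP3 and 9208 with ITGAE, so its count is uncertain. The calcium pump gene ATP2A3, 27.3 kb from P2RX1 by their starts, fell from 1401 to 563 (-1.29, edgeR adjusted p = 0.0259). On the other side CAMKK1, at -36.3 kb by its start, was not called (0.12, edgeR adjusted p = 0.813). P2RX4, with 465, 431 and 487 counts in WT and 261, 510 and 454 in the labelled knockout libraries, was not called (-0.14 ± 0.20, edgeR adjusted p = 0.649), nor was P2RX2 (-0.0182 ± 0.42).

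Neuropeptide Y receptors are inhibitory G protein-coupled receptors best known for feeding and vascular tone, and both genes of the family that were detected were silent in WT. NPY1R (ENSG00000164128, chromosome 4, 163323962 to 163344689) had 0 counts in each WT library and 89, 72 and 42 in labelled knockout replicates 1 to 3, at 4.49 ± 2.03 CPM. This is 70.4-fold a floor of 3 counts over the WT group (edgeR adjusted p = 0.00515). NPY5R (ENSG00000164129, chromosome 4, 163343892 to 163352403) also had 0 counts in each WT library, and 20, 14 and 21 in the labelled knockout libraries. That is 19.1-fold the same floor (edgeR adjusted p = 0.00979). All labelled knockout libraries expressed both genes and no WT library had a read. Without replicate 1 both were called, at adjusted p of 2.49e-08 and 5.40e-05. NPY2R, the third gene of the rule and elsewhere on the chromosome, was at 0 counts in every library. The annotated spans of NPY1R and NPY5R overlap by 798 bases. Genes on both sides were higher too, but were expressed in WT: NAF1, a ribonucleoprotein assembly factor, rose from 1383 to 3239 counts (1.32, edgeR adjusted p = 0.0134) and TMA16 from 1008 to 1850 (0.94, edgeR adjusted p = 0.00580). MARCHF1, a ubiquitin ligase gene, had 392 and 856 counts and was not called (1.24, edgeR adjusted p = 0.0685).

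Serotonin receptors included the second gene with 0 counts in the labelled knockout libraries. HTR2C encodes a Gq-coupled serotonin receptor known for appetite control. HTR2C (ENSG00000147246, chromosome X, 114584086 to 114910061) had 69, 66 and 82 counts in WT and 0 in each labelled knockout library. The WT level was 4.48 ± 0.552 CPM, or 69.5-fold the same floor over the labelled knockout group (edgeR adjusted p = 0.00169, and 1.57e-09 without replicate 1). It lies far from the GABRA3 interval on the X chromosome, and its nearest neighbour with at least 10 counts, LRCH2, whose start is 527 kb away, had 3076 counts in WT and 2423 in the labelled knockout libraries (-0.26, edgeR adjusted p = 0.453). HTR6, a Gs-coupled receptor, had 208, 229 and 196 counts in WT and 56, 100 and 88 in the labelled knockout libraries. It lay between 12.0 and 13.6 CPM in WT and between 4.14 and 6.07 CPM in the labelled knockout libraries (-1.33 ± 0.21, edgeR adjusted p = 0.00814), and the call was lost without WT replicate 1 or WT replicate 2. HTR1D, a Gi-coupled receptor targeted by triptans, had 14, 12 and 10 counts in WT and 33, 32 and 24 in the labelled knockout libraries (1.37 ± 0.37, edgeR adjusted p = 0.0475). The call was lost in 9 of 12 other settings, among them the removal of any library but labelled knockout replicate 1. HTR2B, HTR3A, HTR3B and HTR7 had 9, 27, 7 and 25 counts in WT and 41, 25, 18 and 9 in the labelled knockout libraries and were not tested; HTR2B lies within PSMD1.

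Muscarinic receptors were represented by CHRM3, the Gq-coupled receptor of smooth muscle and glands, which was switched on. CHRM3 (ENSG00000133019, chromosome 1, 239386568 to 239915450) had 0, 2 and 1 counts in WT and 23, 18 and 16 in the labelled knockout libraries. The ratio was 19.8, with a counting interval of 6.43 to 98.7 (edgeR adjusted p = 0.0112), and the call was lost on leaving out WT replicate 1 or WT replicate 3. CHRM4 had 20 and 32 counts and overlapping groups.

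ADRA2C, a Gi-coupled adrenoceptor gene, had 846, 870 and 788 counts in WT and 413, 892 and 831 in the labelled knockout libraries, where replicate 1 alone was low, and was not called (-0.20 ± 0.22, edgeR adjusted p = 0.557). P2RY1, the Gq-coupled ADP receptor and the receptor gene with the most counts, had 691, 696 and 706 counts in WT and 1249, 1214 and 1408 in the labelled knockout libraries. It rose from 43.2 ± 1.80 to 83.6 ± 9.39 CPM (0.95 ± 0.14, edgeR adjusted p = 0.00686). No WT library came near the labelled knockout libraries, yet the call was lost on leaving out any 1 of the 3 WT libraries. P2RY2, a receptor for ATP and UTP, had 136 and 111 counts (-0.24 ± 0.26), and P2RY6 beside it had 0 and 11. P2RY12 and P2RY14 lie within MED12L, a gene that had 1135 counts in WT and 2132 in the labelled knockout libraries, so their counts are uncertain. The dopamine receptor DRD4 (-0.76 ± 0.68) was not called, and DRD2 had 15 and 7 counts.

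SSTR2, a Gi-coupled somatostatin receptor, lies next to the gene named in the labels: its end is 55.8 kb from the start of C17orf80 on chromosome 17. It had 102, 109 and 131 counts in WT and 161, 128 and 130 in the labelled knockout libraries. The groups overlap, and the gene was not called (0.38 ± 0.24, edgeR adjusted p = 0.309). The genes between them were called higher, COG1 at 0.63 (edgeR adjusted p = 0.0242) and FAM104A at 0.78 (edgeR adjusted p = 0.0173), beside 0.78 for C17orf80 itself. SSTR3 and SSTR5 had 12 and 16 counts in WT and 4 and 22 in the labelled knockout libraries.

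The direction of the 19 called receptors did not change in any of 12 other settings, which were other tools, scalings and filters, a block for the replicate number and the removal of each library in turn. Of these, 11 were called in all 12 settings, including GABRA3, GABRE, GABRQ, GABRD and HTR2C, which were lower, and GABBR2, GLRA3, GLRB and NPY1R, which were higher. NPY5R was called with each library left out but not with the replicate block. Others were called less often, GRIK2 in 11 settings, HTR6 in 10, CHRM3 (also lost with the block) and P2RY1 in 9, GRIN2D in 6 and HTR1D in 3. Leaving out 1 WT library had a large effect on all genes, of which 401 to 426 were then called higher and 243 to 246 lower. The receptors called were 8 higher and 5 or 6 lower in those fits.

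**Figure D4:**
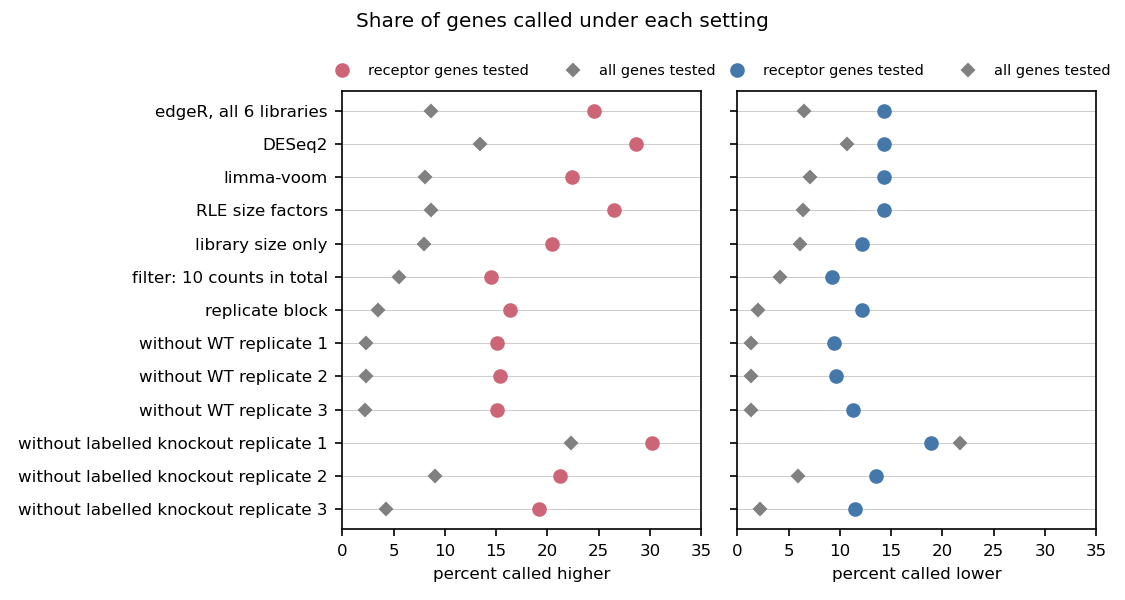
Percent of genes called higher (left) and lower (right) at an adjusted p under 0.05 in each setting on the y axis, for tested receptor genes (circles) and all genes tested (diamonds). Receptors lie to the right of all genes in each setting but 1: without labelled knockout replicate 1, 18.9% of receptors and 21.7% of all genes were called lower.

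The 8 genes that share only a symbol were all tested, and 1 of them was called over all 6 libraries. GRID2IP, a scaffold of cerebellar synapses, had 270, 302 and 280 counts in WT and 107, 144 and 144 in the labelled knockout libraries (-1.06 ± 0.15, edgeR adjusted p = 0.00609). The proteases and glutaredoxins were not called over all libraries, with log2 fold changes from -0.77 for HTRA3 to 0.34 for GLRX2. Without labelled knockout replicate 1, 1 of the 8 genes was higher and 2 were lower, against 22.3% and 21.7% of all genes. GLRX5 was then called higher (0.54, edgeR adjusted p = 4.02e-06) and HTRA3 lower (-0.52, edgeR adjusted p = 0.00627).

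Genes that make, move, anchor or transduce the transmitters were counted in 8 lists, to be read against 8.64% higher and 6.50% lower among all genes tested by edgeR, and against 22.3% and 21.7% without labelled knockout replicate 1. In the GABA list of synthesis, transport and anchoring genes, 2 of 17 tested genes were higher and 2 lower, with a median log2 fold change of 0.0094, and without replicate 1 the counts were 6 and 6. GAD1, the enzyme that makes GABA, rose from 10.2 ± 2.07 to 18.0 ± 1.03 CPM (0.82, edgeR adjusted p = 0.0338), and PLCL1, which encodes a protein that binds GABA-A receptors, fell by 1.12 on the log2 scale (edgeR adjusted p = 0.0113). Among glutamate receptor scaffolds and auxiliary subunits 1 of 25 was higher and 6 were lower, with a median of -0.53, and without replicate 1 the counts were 4 and 13. CACNG7, an auxiliary subunit of AMPA receptors, had 77, 87 and 99 counts in WT and 4, 3 and 9 in the labelled knockout libraries (-3.95, edgeR adjusted p = 0.00152). CACNG4 of the same family was at -3.37 (edgeR adjusted p = 0.0333), and the kainate receptor partner NETO2 rose by 0.75 (edgeR adjusted p = 0.0304). Glutamine synthetase, encoded by GLUL, was the single call over all libraries among 9 tested genes of glutamate and glycine metabolism, at 1.21 (edgeR adjusted p = 0.00152). Without replicate 1, 2 genes of that list were higher and 5 lower.

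The cholinergic list had 3 lower of 10 tested genes, among them DOK7, an adaptor for assembly of muscle nicotinic receptors (-3.92, edgeR adjusted p = 0.00604), and CRELD2 (-1.17, edgeR adjusted p = 0.0211), and without labelled knockout replicate 1 it had 2 higher and 3 lower. Of 10 tested genes of monoamine synthesis, transport and breakdown 1 was lower, and without replicate 1 there were 3 higher and 2 lower. Of 4 tested genes for neuropeptide Y and somatostatin ligands and their processing, DPP4, a peptidase that trims neuropeptide Y, had 1, 5 and 6 counts in WT and 230, 163 and 166 in the labelled knockout libraries (5.59, edgeR adjusted p = 9.28e-04). That was the 1 call of the list, which had 2 higher and 0 lower without replicate 1. SST, the somatostatin gene, was at 0 counts in each library. The purinergic list had 2 higher and 2 lower of 17, with the adenosine-forming enzyme NT5E at 1.87 (edgeR adjusted p = 0.0215), ENPP2 at 1.06 (edgeR adjusted p = 0.00910), the channel gene PANX2 at -1.36 (edgeR adjusted p = 0.00965) and ALPL at -0.94 (edgeR adjusted p = 0.0455). Without replicate 1 its counts were 5 and 3. Among G proteins, their effectors, receptor kinases and arrestins 3 of 35 were higher and 3 lower, and 7 and 13 without replicate 1. GNAO1, the inhibitory alpha subunit most abundant in neurons, fell from 51.8 ± 5.22 to 5.30 ± 1.61 CPM (-3.29, edgeR adjusted p = 5.39e-04), and GNAZ fell as well (-1.80, edgeR adjusted p = 0.00140). Of the phospholipases that Gq-coupled receptors activate, PLCB2 rose by 3.87 (edgeR adjusted p = 0.0341) and PLCB1 by 1.24 (edgeR adjusted p = 0.0260). PLCB4 rose by 0.90 (edgeR adjusted p = 0.0387), and PLCB3, at -0.65, was not called (edgeR adjusted p = 0.176).

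Marker lists were read beside these results. Of 12 neuronal markers 6 were tested: INA, an internexin, went from 0 counts in WT to 459, 393 and 411 in the labelled knockout libraries, whereas NEFL, a neurofilament gene, fell by 1.48 on the log2 scale (edgeR adjusted p = 0.00252). The summed level of the neuronal list was 352 to 367 CPM in WT and 245 to 284 CPM in the labelled knockout libraries. The lower sum rests mainly on NEFL, at a mean of 195 CPM in WT and 69.9 CPM in the labelled knockout libraries. ELAVL4 was at 0 counts. Of the 6 tested genes 1 was higher and 1 lower, or 2 and 1 without replicate 1. Markers of embryonic kidney and of the HEK line summed to 145 to 152 CPM in WT and 145 to 169 CPM in the labelled knockout libraries. Of 6 tested, the gene named WT1 was called higher (1.67, edgeR adjusted p = 0.00298) and EYA1 lower (-1.41, edgeR adjusted p = 0.00610). Without labelled knockout replicate 1 the counts were 1 higher and 2 lower. Epithelial markers summed to 121 to 128 CPM and 116 to 188 CPM, and edgeR called 0 of the 5 tested, 0 of them under 0.05 before adjustment, and 1 higher and 1 lower without labelled knockout replicate 1. Among fibroblast and mesenchyme markers 1 of 5 was higher and 2 lower, with COL3A1 at -2.43 (edgeR adjusted p = 0.00132). Adrenal and neural crest markers stayed under 1 CPM in sum in each library, with TH at 0. Blood and endothelial markers summed to 2.44 to 5.34 CPM over all libraries, with PTPRC, CD3E, HBB and CDH5 at 0. The part of these markers in the receptor changes was not tested.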

How the data were processed

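Poly(A)-selected RNA of 3 WT and 3 labelled knockout HEK-293T libraries was analysed. The authors deposited raw gene counts, 1 table for each library. Per the submitters' processing notes, the tools included HISAT2 2.2.1, SAMtools 1.3.1, HTSeq 0.12.4 and DESeq2, besides FastQC 0.11.9 and bedtools 2.30.0, on GRCh38 (hg38); no order or counting options are given. Reads in no gene (8.75% to 15.9%) and ambiguous reads (9.74% to 12.5%) stayed out of library sizes and tests. Coverage files of the mitochondrial chromosome, where none of the receptor genes lies, were not used here.

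Symbols and coordinates came from a gene name table and RefSeq (GRCh38.p14). The test was edgeR's quasi-likelihood F test (edgeR 4.0.16, R 4.3.3) between the groups, with TMM scaling, the default expression filter and Benjamini-Hochberg adjustment over 17452 genes at 0.05. The code was run on simulated counts with the same spread for each gene. These held no library that stood apart and no on/off switches, so that run does not cover either. CPM use TMM-adjusted library sizes. Levels carry the SD over 3 libraries and log2 fold changes their standard error. The on/off rule needs at most 3 counts over one group and at least 5 in each library of the other, and carries no test. Ratios to a floor of 3 counts are not 95% limits. The 95% exact intervals cover counting error only, with reads lacking molecular identifiers. Alternatives were DESeq2 1.42.0, limma-voom (limma 3.58.1), relative log expression and plain library size scaling, a filter of 10 counts in total, a block for the replicate number and the removal of each library.

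The genes, the 9 lists of related genes and the 6 marker lists were chosen with earlier results of these data known. Named are receptors called or switched, the 2 with the most counts in each family, those within 1 Mb of a switch or at the limit of 10 counts, and up to 2 called genes per direction of each list, with flanking genes and further receptors chosen after their values were seen. Protein stretches had been planned and were not used here. Values of some genes that the rule names are not reported here, in text or figures.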

Additional observations from a re-analysis of the deposited data

How the results depend on the processing

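The switch limit mattered most: with 0 counts required over the silent group, 2 receptors were switched on (NPY1R, NPY5R) and 2 off (GABRA3, HTR2C), against 7 and 4 with up to 3 counts. With 10 counts required in each expressing library 6 were on and 4 off. Leaving out each library in turn gave 7 to 9 on and 4 off.

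Receptors called by edgeR ranged from 8 to 16 higher and from 5 to 10 lower over the fits that left out 1 library; both maxima were without labelled knockout replicate 1. Other scalings gave 13 higher and 7 lower (relative log expression) and 10 and 6 (library size). Over all genes 1507 higher and 1134 lower calls became 4048 and 3927 without labelled knockout replicate 1, and 401 to 426 and 243 to 246 without 1 WT library. In all, 195 of 228 repeats of the 19 calls passed the threshold, and 0 changed sign.

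Libraries with the same replicate number did not deviate together (correlations of -0.058, -0.029 and 0.002), so no pairing by number was seen. Labelled knockout replicate 1 stood apart and could hide a weaker shared deviation, so these correlations cannot settle the pairing. A fit with a replicate block called 8 receptors higher and 6 lower, and 610 and 359 of all genes, with fewer degrees of freedom. Low counts limit the rest: 27 receptors were not tested, and for switches the size of the change is known only as a ratio to a floor or a wide interval.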

Other observations

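Receptors for other neuropeptides and for cannabinoids, histamine and trace amines were not part of the set described above. Of 42 such genes 10 were tested by edgeR, 1 was higher and 2 were lower, beside 8.64% and 6.50% of all genes tested, with a median log2 fold change of -0.25 beside 0.00550 for all genes tested. Without labelled knockout replicate 1 the counts were 1 and 3. ADCYAP1R1, the receptor for the peptide PACAP, had 400, 453 and 458 counts in WT and 70, 77 and 57 in the labelled knockout libraries, a fall from 27.0 ± 1.03 to 4.43 ± 0.901 CPM (-2.61, edgeR adjusted p = 6.06e-04). VIPR2, a receptor for the related peptide VIP, had 23, 15 and 20 counts in WT and 0, 3 and 0 in the labelled knockout libraries, and met the switch rule (-4.08, edgeR adjusted p = 0.0228). The galanin receptor gene GALR2 rose from 0.368 ± 0.149 to 1.14 ± 0.0934 CPM (1.60, edgeR adjusted p = 0.0499). The groups did not overlap for any of these 3 genes. Among the 42 genes 10 were at 0 counts in each library, including the opioid receptor genes OPRM1 and OPRK1. The summed level of the list was 60.3 to 62.0 CPM in WT and 29.5 to 37.6 CPM in the labelled knockout libraries. Most of that difference came from ADCYAP1R1 alone, through its fall from 27.0 to 4.43 CPM, so the sum does not show a general fall of the list.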
